A study of Mus musculus with 4 samples.

Results

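Goblet and deep-crypt secretory cells were described here in single-cell RNA measurements of mouse colonic organoids, that is, gut epithelium kept as small hollow bodies in a matrix. The cells were those that the authors' deposited annotation puts in the class Secretory-Reg4-Spdef-Lyz1. There were 255 such cells among 4172 epithelial cells and 6155 cells in all. They came as 73 cells from the wildtype untreated library, 111 from the wildtype TNF library, 63 from the Tnfr2-/- untreated library and 8 from the Tnfr2-/- TNF library. Values below are given in that order of the libraries unless a sentence says otherwise. Epithelial cells were 1128 of 2589, 1163 of 1469, 1023 of 1117 and 858 of 980 cells of the libraries. The authors describe the remaining cells as fibroblasts, and their part in differences between libraries was not tested. The 6 genes that mark such cells (Zg16, Muc2, Lyz1, Sval1, Spink4 and Reg4) were each at least 4-fold higher in the class than in the other epithelial cells of each of the 3 larger libraries, so the markers do not go against the name. The class was cut from these same genes, so that contrast is a description and not a test.

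Goblet cells make and release the mucus that covers the gut surface, built on the mucin Muc2 and proteins that bind or crosslink it. Deep-crypt secretory cells sit among the stem cells at the base of colonic crypts, carry Reg4, and are regarded as the colon's counterpart of the Paneth cells of the small intestine, which release lysozyme and other antimicrobial proteins and feed stem cells with growth factors. Both kinds arise from secretory progenitors under the transcription factors Atoh1 and Spdef, and both depend on a large endoplasmic reticulum to fold what they export.

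Tumor necrosis factor (TNF) signals through receptor 1 (Tnfrsf1a) and receptor 2 (Tnfrsf1b, also called Tnfr2), and the study asked what receptor 2 does in the colonic epithelium. Organoids were grown from the distal colon of 16-week-old wildtype mice and of mice that lack Tnfr2 in every cell. The study's methods name C57BL/6 mice and a Tnfr2-/- line on a B6 background. Cultures in Matrigel and IntestiCult medium received vehicle or 20 ng/ml of TNF between days 1 and 6 following passage 5, were harvested on day 7, dissociated with TrypLE and depleted of apoptotic cells with Annexin V. Each combination of genotype and treatment was 1 library, so a difference between groups has no replicate check, no p-value is given, and genotype or treatment cannot be told apart from the culture. The intervals below are exact 95% intervals (Poisson for sums of molecules, Clopper-Pearson for shares of cells), and they cover counting error only.

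Transcripts were counted as unique molecular identifiers (UMIs) at their 3' ends, and levels are in CPM, a gene's UMIs summed over the class cells of a library and scaled to a total of 1000000 UMIs. The class held 2838753, 6453966, 2390962 and 267701 UMIs in the 4 libraries, with a median of 34057, 48833, 33766 and 31569 UMIs per cell and at most 277417. The other epithelial cells had medians of 37443, 28021, 41912 and 37458 UMIs. No barcode of the class occurred in a second library (3 barcodes did over all cells), and none of its cells was among the 47 that a doublet caller marked, 0.764% of all cells. The wildtype TNF library was mixed in its sex-linked transcripts: 67 of its class cells held Xist and no Y-linked transcript, 17 held Y-linked transcripts and no Xist, and 27 held neither. Among the wildtype untreated cells 61 held Xist and none held Y-linked transcripts alone, and in the Tnfr2-/- untreated library 61 of 63 held neither. Genotype or treatment and the donors of these cultures cannot be told apart.

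Stretches of sequence next to the start of 4 of the class's genes are shown because these genes carry the results on mucus, lysozyme and the Reg4 program below. Each is the 300 bases from 250 before to 50 after the RefSeq start (GRCm38.p6), 5' to 3' on the gene's strand, with the E-box hexamers CAGCTG and CAGATG in capitals where found. E-boxes are the kind of motif that basic helix-loop-helix factors such as Atoh1 bind. The Muc2 window (mucin) is chr7:141690090-141690389 on the plus strand, the Sval1 window (a secreted seminal vesicle antigen-like protein) is chr6:41951378-41951677 on the plus strand, the Lyz1 window (lysozyme) is chr10:117292819-117293118 on the minus strand, and the Reg4 window (a secreted lectin) is chr3:98221906-98222205 on the plus strand.
Muc2: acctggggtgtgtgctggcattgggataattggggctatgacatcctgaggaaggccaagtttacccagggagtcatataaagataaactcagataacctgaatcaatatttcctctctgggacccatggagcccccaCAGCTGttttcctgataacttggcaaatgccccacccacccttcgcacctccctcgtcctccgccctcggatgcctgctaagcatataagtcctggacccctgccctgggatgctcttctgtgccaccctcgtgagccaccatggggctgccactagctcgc
Sval1: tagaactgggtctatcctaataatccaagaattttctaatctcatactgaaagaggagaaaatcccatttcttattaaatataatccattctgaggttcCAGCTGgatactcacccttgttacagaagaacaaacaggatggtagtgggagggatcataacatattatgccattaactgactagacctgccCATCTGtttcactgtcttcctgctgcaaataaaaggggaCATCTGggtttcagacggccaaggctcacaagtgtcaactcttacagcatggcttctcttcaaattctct
Lyz1: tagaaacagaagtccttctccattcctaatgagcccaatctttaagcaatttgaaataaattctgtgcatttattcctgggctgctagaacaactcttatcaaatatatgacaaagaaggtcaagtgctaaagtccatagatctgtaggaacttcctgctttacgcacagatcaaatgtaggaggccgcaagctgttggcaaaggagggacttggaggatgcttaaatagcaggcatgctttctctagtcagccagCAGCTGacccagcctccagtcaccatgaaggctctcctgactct
Reg4: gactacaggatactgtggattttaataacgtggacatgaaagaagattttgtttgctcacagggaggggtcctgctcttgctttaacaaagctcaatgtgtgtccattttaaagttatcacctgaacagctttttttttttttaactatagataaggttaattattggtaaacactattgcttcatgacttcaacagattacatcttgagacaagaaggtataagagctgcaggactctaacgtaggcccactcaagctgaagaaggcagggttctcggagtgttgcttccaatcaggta

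CAGCTG, which reads the same on both strands, began 112 bases before the start of Muc2, 151 bases before that of Sval1 and 6 bases after that of Lyz1. The Sval1 window also held CAGATG on the minus strand (written CATCTG above) 59 and 20 bases before the start, and the Reg4 window held neither hexamer. RefSeq windows were matched for 27 of the 40 leading genes defined below. A gene with several windows was counted where any of them held the motif, which favours such genes. CAGCTG occurred in 10 of these 27 (37.0%) against 18.3% of 27025 genes, and CAGATG in 11 (40.7%) against 19.2%. Among genes with a single window, CAGCTG occurred in 7 of 19 leading genes against 16.1% of 22862 genes. There CAGATG occurred in 6 of 19 against 17.4%, and ACGTG in 4 of 19 against 19.4%. In all 12 motifs were searched, each on both strands. Over genes with any number of windows, TTTATGG occurred in 4 of the 27 (14.8% against 3.21%), TATTTAC in 3 (11.1% against 3.51%), ACGTG in 8 (29.6% against 21.8%), GGATG in 16 (59.3% against 46.3%) and TATAAA in 6 (22.2% against 15.7%). TTTATTG occurred in 2 genes (7.41% against 5.33%), CAAAGTCC in 1 (3.70% against 1.63%) and TGTTTAC in 1 (3.70% against 4.05%). ACCGGATN (1.11% of all genes) and the endoplasmic reticulum stress element (0.137%) occurred in none of the 27. These are matches of letters in a short window and say nothing of which factor binds there.

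The leading genes of the class were those at least 4-fold above the other epithelial cells in each of the 3 larger libraries, at 50 CPM or more in the class. They numbered 40 of 2298 genes at that level (1.74%), and the gene just outside the limit, Fkbp11, had a smallest difference of 1.99 on the log2(CPM + 1) scale. Lyz1 stood first, with differences of 6.28, 6.94 and 6.95 in the wildtype untreated, wildtype TNF and Tnfr2-/- untreated libraries. Zg16 (a lectin of the mucus that binds bacterial cell walls), Muc2, Fcgbp (a large mucus protein), Sval1, Ccl6 (a chemokine), Tff3 (the goblet trefoil peptide), Spink4, Spdef, Ccl9 (a chemokine), Mptx1 (a pentraxin), Slc12a8, Clps (colipase), Tpsg1 and Ang4 (an antimicrobial angiogenin) followed, with a smallest difference between 5.11 and 4.25. Reg4 was the 19th with 3.97.

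By role, 7 of the 9 goblet mucus genes and 11 of the 12 deep-crypt secretory genes at that level were leading genes, as were 3 of 10 secretory transcription factors (Spdef, Creb3l4 and Creb3l1) and 4 of 19 genes of endoplasmic reticulum folding (Txndc5, Pdia5, Selenom and Ern2). None of the 6 regenerative genes at that level was among them. In the opposite direction 23 of 2436 genes were at least 4-fold lower in the class in each of the 3 libraries. They included Saa1, an acute-phase protein, at 10.6, 6.66 and 0.418 CPM against 927, 276 and 96.5 CPM in the other epithelial cells. Clu, a gene of the regenerative program, was also among them at 5.64, 19.5 and 27.2 CPM against 364, 469 and 844 CPM.

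Fewer genes set the class apart from each other class taken singly. Against the highest other epithelial class of each library, 5 of the 40 leading genes were still at least 4-fold higher, namely Lyz1 (smallest difference 3.58), Mptx1 (3.28), Zg16 (3.01), Ccl9 (2.28) and Slc12a8 (2.02, a solute carrier), and Fcgbp followed at 1.96. In the wildtype TNF library the nearest class for most genes was Secretory-Reg4-Ang4, which held 246 cells, all from that library. Its cells were shallow, with a median of 1957.5 UMIs per cell and at most 6076. Within that library, the class described here had 2258 CPM of Lyz1 against 21.6 in Secretory-Reg4-Ang4, and 1823 against 226 CPM of Zg16 and 560 against 56.9 CPM of Mptx1. The levels of Sval1 (6374 against 7288 CPM) and Muc2 (2300 against 2267 CPM) lay close together, while Ang4 (4498 against 11505 CPM), Spink4 (21129 against 30018 CPM) and Reg4 (1021 against 2630 CPM) were higher in Secretory-Reg4-Ang4. The part of its low depth in these values was not tested.

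**Figure D1:**
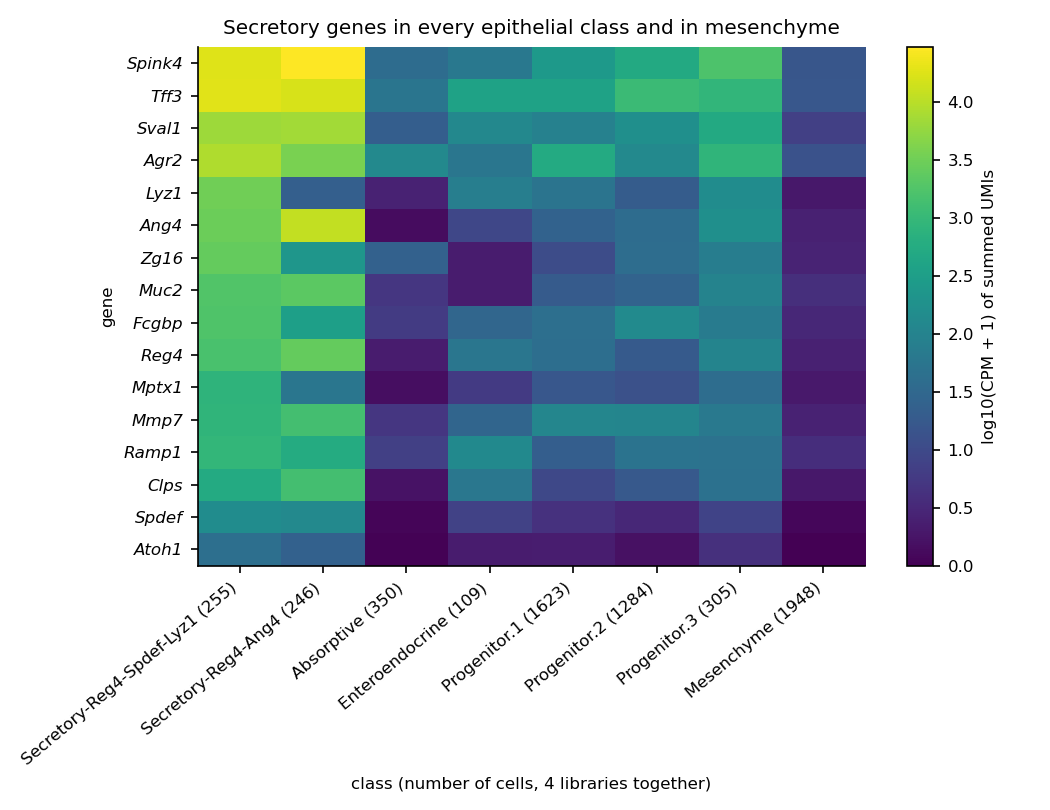
Level of 16 secretory genes (rows) in each epithelial class and in mesenchyme (columns, with the number of cells over all 4 libraries), as colour on a scale of log10(CPM + 1) of summed UMIs. Lyz1, Zg16, Fcgbp and Mptx1 are brighter in Secretory-Reg4-Spdef-Lyz1 than in every other column, whereas Spink4, Ang4, Reg4 and Clps are brightest in Secretory-Reg4-Ang4.

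The class took 6.47% (interval 5.11 to 8.07) of the epithelial cells of the wildtype untreated library, 9.54% (7.92 to 11.4) of wildtype TNF, 6.16% (4.76 to 7.81) of Tnfr2-/- untreated and 0.932% (0.403 to 1.83) of Tnfr2-/- TNF. The genes that define the class themselves differed between these libraries, and the neighbouring class was found in 1 library only, so the shares are given as values and no order is read from them.

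Within the class, the markers fell into those that nearly every cell carried and those that a few cells held. Spink4 (a secreted peptide with a Kazal domain, chr4:40920052-40931395 on the plus strand of GRCm38) was at 16844 CPM (16693 to 16995), 21129 CPM (21017 to 21241), 12434 CPM (12292 to 12576) and 14277 CPM, and the median cells had 17807, 22770, 11025 and 15072 CPM. Its highest 10% of cells held 24.8%, 28.2% and 28.1% of its UMIs in the 3 larger libraries. Sval1 (chr6:41951630-41956098, plus strand) was at 7756, 6374, 6098 and 6728 CPM with at least 1 UMI in every class cell of every library. Tff3 (chr17:31125306-31129646, minus strand) was likewise found in every class cell, at 15249, 17028, 26959 and 32484 CPM. These genes were therefore broad traits of the class.

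Zg16 was carried by few cells. Its gene lies at chr7:127050156-127087328 on the minus strand, and its summed level was 6144 CPM (6053 to 6236), 1823 CPM (1790 to 1856), 732 CPM (698 to 767) and, in the 8 cells of Tnfr2-/- TNF, 0 UMIs, which allows up to 11.2 CPM (3 UMIs). The median class cell held 0 Zg16 UMIs in all 4 libraries, and the highest cell held 152033, 96700 and 23695 CPM in the 3 larger libraries. The highest 10% of cells had 97.8%, 96.4% and 94.6% of all Zg16 UMIs, and the highest cell alone had 65.4%, 47.4% and 74.5%. Without that 1 cell the level was 2184, 968 and 191 CPM. The order of the 3 libraries stayed the same, but the values rest on a handful of cells.

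Lyz1 (chr10:117287797-117292868, minus strand) lay between these extremes. It was at 4051 CPM (3977 to 4125), 2258 CPM (2222 to 2295), 5231 CPM (5140 to 5323) and 504 CPM (423 to 597), and the median cells held 1013, 168, 2505 and 333 CPM. Its highest 10% of cells carried 59.0%, 73.8% and 49.96% of its UMIs. Mptx1, a pentraxin typical of crypt-base secretory cells, was also uneven, at 1722, 560, 383 and 560 CPM with median cells at 52.3, 8.31, 0 and 59.0 CPM. Reads of Lyz1 could be shared with its near copy Lyz2, which was at 0.705, 0.775, 1.67 and 0 CPM in the class.

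Muc2 (chr7:141690340-141754693, plus strand) was at 1979 CPM (1927 to 2031), 2300 CPM (2263 to 2337), 554 CPM (524 to 584) and 471 CPM (392 to 560), with median cells at 1286, 1479, 372 and 279 CPM. Both wildtype libraries were above both Tnfr2-/- libraries in the sum and in the median cell. Reg4 (chr3:98222156-98236748, plus strand) was at 2605 CPM (2546 to 2665), 1021 CPM (997 to 1046), 1856 CPM (1802 to 1912) and 523 CPM (440 to 617), with median cells at 2314, 684, 1646 and 484 CPM. Here both untreated libraries were above both TNF libraries.

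**Figure D2:**
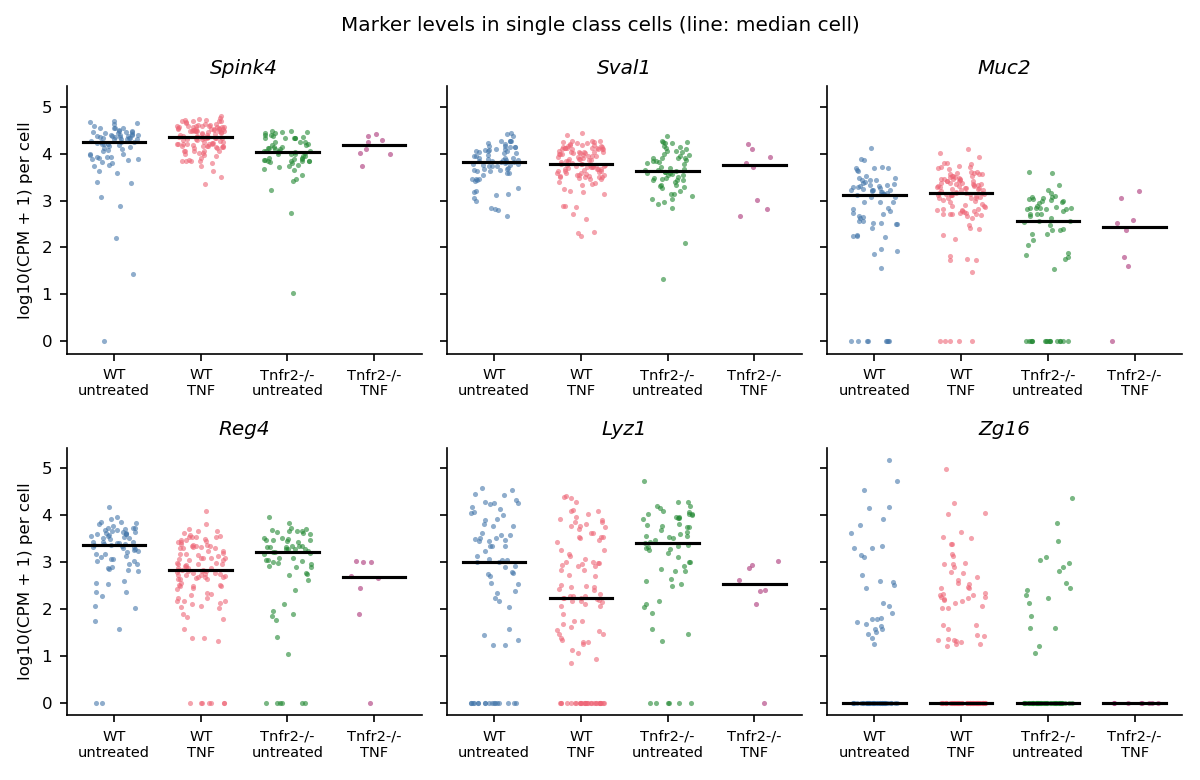
Level of the 6 marker genes in each class cell, as log10(CPM + 1), by library, where a point is 1 cell and the line is the median cell. Most cells of each library lie near the median for Spink4 and Sval1, with a few far below it, Lyz1 spreads over the whole scale, and the median for Zg16 sits at 0 in all 4 libraries with a few cells far above it.

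**Figure D3:**
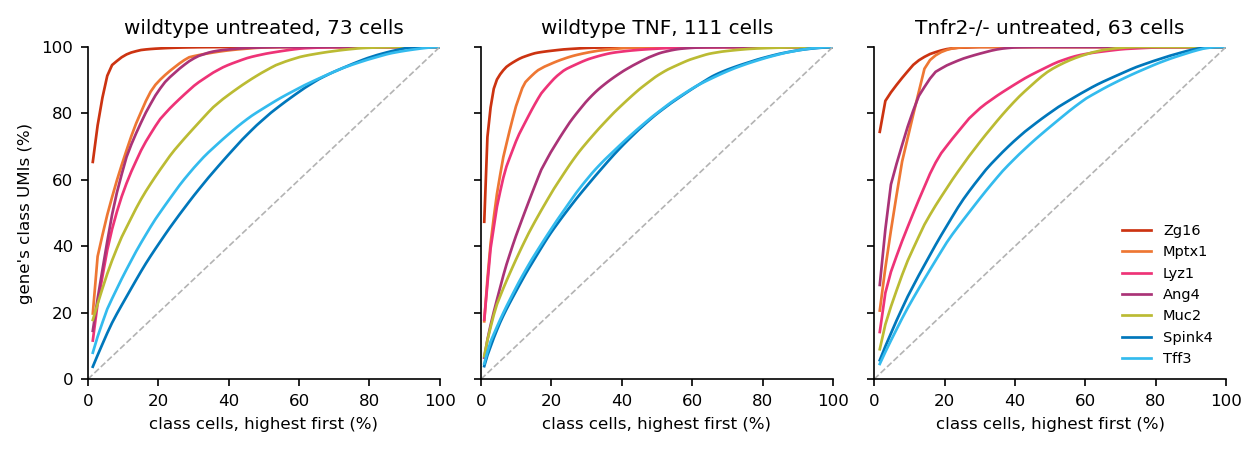
Share of a gene's class UMIs (vertical, percent) held by class cells ranked from the highest (horizontal, percent of cells) in the 3 libraries with 63 or more class cells. The Zg16 curve is nearly at its top within the first 10% of cells (97.8%, 96.4% and 94.6%), and Spink4 and Tff3 run closest to the diagonal that equal cells would give.

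High Zg16 and high Lyz1 were found together in some cells of each of the 3 larger libraries. At a level of 1000 CPM in a cell, a value chosen after the distributions were seen, 13 of 73 wildtype untreated cells were high in Zg16 (17.8%, 9.84 to 28.5), 37 in Lyz1 (50.7%) and 3 in both. In wildtype TNF 11 of 111 were high in Zg16 (9.91%, 5.05 to 17.0), 32 in Lyz1 (28.8%) and 3 in both, and in Tnfr2-/- untreated 5 of 63 were high in Zg16 (7.94%, 2.63 to 17.6), 42 in Lyz1 (66.7%) and 3 in both. Of the 8 Tnfr2-/- TNF cells, 1 was high in Lyz1 and none in Zg16. The remaining cells, 26, 71, 19 and 7 of them, were below the level for both genes. The level cuts a range: 13, 17 and 10 cells of the larger libraries lay within 2-fold of it for Lyz1, and 5, 8 and 5 for Zg16. At a level of 500 CPM, 6 of 14, 5 of 17 and 7 of 8 cells high in Zg16 were also high in Lyz1. Whether the 2 genes avoid or share cells was not tested.

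**Figure D4:**
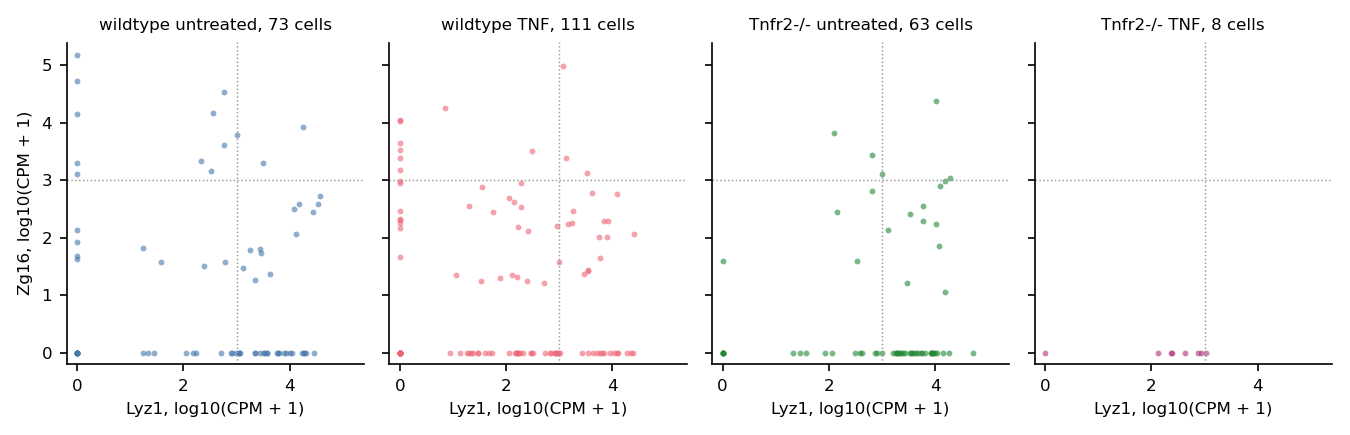
Zg16 (vertical) against Lyz1 (horizontal) in each class cell, both as log10(CPM + 1), by library, with dotted lines at 1000 CPM. The upper right corner holds 3, 3, 3 and 0 cells, against 13, 11, 5 and 0 cells above the horizontal line in all.

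Depth was made equal by drawing 5000 UMIs from each cell, which kept 72 wildtype untreated, 106 wildtype TNF and 62 Tnfr2-/- untreated class cells. On these cells the rank correlation of Zg16 with Lyz1 was -0.05, -0.08 and 0.15, while that of Zg16 with Muc2 was 0.47, 0.34 and 0.30. Tff3 and Spink4 had the highest values of 45 gene pairs (0.71, 0.69 and 0.70). Spink4 with Reg4 gave 0.62, 0.46 and 0.53, Muc2 with Tff3 gave 0.59, 0.39 and 0.53, and Reg4 with Lyz1 gave 0.52, 0.35 and 0.52. Lyz1 and Ang4 gave 0.44, 0.33 and 0.37, and Fcgbp followed Tff3 (0.50, 0.41 and 0.68) rather than Lyz1 (-0.10, -0.05 and 0.25). The cells of a library share that library, and genes with many zeros give low values, so these are descriptions. Values near 0, as for Zg16 with Lyz1, are no finding at these counts.

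With the depth so fixed, Zg16 had a UMI in 26.4%, 29.2% and 19.4% of class cells (45.2%, 45.9% and 30.2% without thinning), against 1.34%, 0% and 0% of mesenchymal cells, which should lack it. Lyz1 was found in 65.3%, 62.3% and 83.9% of class cells against 0.423%, 0.671% and 1.16% of mesenchymal cells, and Muc2 in 80.6%, 87.7% and 59.7% against 0.212%, 2.01% and 1.16%. Before thinning, mesenchymal cells had medians of 22643, 48633 and 24549 UMIs. For these 3 genes the shares in the class were far above this background in each of the 3 larger libraries. The background was higher for Spink4 (3.18%, 7.05% and 4.65% of mesenchymal cells) and Tff3 (4.52%, 6.38% and 5.81%). Together, the 27 distinct genes of the goblet mucus and deep-crypt lists took a median of 7.24%, 7.19%, 6.47% and 7.30% of a class cell's UMIs, against 0.238%, 0.390%, 0.0967% and 0.0997% in the other epithelial cells, and at most 27.8% in 1 cell.

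Other mucus components showed their own patterns over the libraries. Fcgbp was at 1619, 1326, 2835 and 3354 CPM, so both Tnfr2-/- libraries stood above both wildtype ones. Agr2, the disulfide isomerase needed to assemble Muc2, was at 10640, 8943, 6909 and 3952 CPM. Itln1 (intelectin, a lectin for microbial sugars) was at 77.9, 109, 233 and 74.7 CPM. Lypd8, which binds flagellated bacteria, was at 1084, 1777, 1090 and 1924 CPM, and Spink1 (a trypsin inhibitor) at 1864, 2398, 1324 and 2353 CPM, higher in both TNF libraries. The membrane mucin Muc13 ranged from 516 to 889 CPM. Clca1 (3.87, 51.8, 17.6 and 3.74 CPM) and Retnlb (4.93, 8.99, 0.418 and 0 CPM), both abundant goblet products of the colon in the animal, were scarce.

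Among the deep-crypt genes, Ramp1 (a receptor accessory protein) was at 1088, 819, 946 and 601 CPM, Hepacam2 at 186, 141, 229 and 168 CPM and Slc12a8 at 101, 82.6, 89.5 and 59.8 CPM. Klk1 (kallikrein) was at 523, 228, 65.7 and 67.2 CPM. Kit, the receptor that is used to isolate deep-crypt secretory cells, was at 34.2, 20.9, 10.5 and 0 CPM, and Cd24a, a surface protein used for the same purpose, stayed between 441 and 602 CPM. Hpd and Gm1123 were under 20 CPM in all 4 libraries.

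The transcription factors that set secretory fate were all measured at modest levels. Spdef was at 156, 141, 159 and 93.4 CPM, Atoh1 at 61.6, 35.6, 36.4 and 33.6 CPM, Foxa3 at 134, 117, 90.8 and 131 CPM and Xbp1 (which drives expansion of the endoplasmic reticulum) at 193, 190, 208 and 138 CPM. Klf4 (143, 191, 207 and 187 CPM), a factor of goblet maturation, and Sox9 (77.5, 89.6, 151 and 142 CPM), a factor of the crypt base, were present as well. Creb3l1 (138 to 247 CPM), Creb3l4 (68.9 to 107 CPM), Sox4 (165 to 225 CPM), Elf3 (102 to 191 CPM) and Foxa1 (44.8 to 60.2 CPM) were measured in every library, whereas Gfi1, Bhlha15 and Nkx2-2 stayed under 20 CPM. Of the niche factors, Dll4 was at 20.1, 13.2, 22.2 and 26.1 CPM and Btc at 30.6, 27.1, 21.3 and 48.6 CPM, and Dll1, Egf, Tgfa, Ereg and Nrg1 were under 20 CPM throughout. Of the folding machinery, the chaperone Hspa5 was at 918, 901, 874 and 665 CPM and the isomerase Pdia3 at 1067, 931, 1061 and 792 CPM.

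TNF was compared with vehicle in wildtype organoids to see how the class's genes stood after exposure to TNF. Of 5551 genes at 20 CPM or more in either library, 143 were at least 2-fold higher with TNF (2.58%) and 26 at least 2-fold lower (0.468%), on the log2(CPM + 1) scale, and the median over all genes was -0.00049. In the other epithelial cells 163 of 5858 genes were higher (2.78%) and 65 lower (1.11%). Both this comparison and the one of genotypes use the wildtype untreated library, so their values are not independent of each other. Of the 6 class markers, 2 were lower and none higher: Zg16 (-1.75, or -1.17 without each library's highest cell) and Reg4 (-1.35). Lyz1 differed by -0.84, Sval1 by -0.28, Muc2 by 0.22 and Spink4 by 0.33.

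The 10 lower genes that the naming rule picks included 4 of the lists above (Zg16, Mptx1, Reg4 and Klk1). Cma1, a chymase gene, showed the greatest fall, from 294 to 57.6 CPM (-2.33). Mptx1 differed by -1.62, Klk1 by -1.20 and Sycn (syncollin, a granule protein) by -1.19, and Bambi (a decoy receptor for TGF-beta family ligands, -1.52), Hsd11b2 (which inactivates glucocorticoids, -1.30), Vkorc1 (the vitamin K cycle, -1.06) and Siva1 (-1.01) completed the 10. Averaging cells equally rather than by their UMIs gave -0.87 for Mptx1, -0.83 for Sycn and -0.99 for Klk1, all under 2-fold. In the other epithelial cells of the same libraries, Zg16 differed by 0.84, Mptx1 by 0.92, Klk1 by 0.70 and Reg4 by 0.63. Sycn (-2.02), Hsd11b2 (-1.64), Vkorc1 (-1.10), Siva1 (-0.77), Cma1 (-0.47) and Bambi (-0.11) were lower in those cells too. Those cells include Secretory-Reg4-Ang4, which was found in the TNF library alone, and without it Zg16 differed by 0.77, Mptx1 by 0.90, Klk1 by 0.52 and Reg4 by -0.63.

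The 10 higher genes that the rule picks were headed by a pair of secretoglobins and also held a pair of oxidase subunits. Scgb1b20 had 0 UMIs untreated and 99.0 CPM with TNF, at least 93.7-fold higher against a floor of 3 UMIs in the untreated library, and Scgb1b7 went from 1.06 to 72.5 CPM (5.16). Reads of these near copies may be split between them. Cyba, the membrane subunit of NADPH oxidases, went from 79.3 to 542 CPM (2.76) and was found in 58.9% and 91.9% of class cells, and Nox1, its partner oxidase in colon, differed by 2.22. Cp (ceruloplasmin, 4.07), Ecscr (3.26), Cxcl16 (a chemokine, 2.93), Cldn14 (a tight junction protein, 2.19) and Adh1 (an alcohol dehydrogenase, 2.17) were the others. Ang4 went from 1012 to 4498 CPM (2.15), and its median cell from 36.5 to 2319 CPM. Ang4 differed by 5.17 in the other epithelial cells and by 3.39 there without Secretory-Reg4-Ang4. The others of the 10 were higher in those cells too, among them Cp (2.94), Ecscr (2.84), Nox1 (2.37), Cldn14 (2.20) and Cyba (2.18). The smallest such difference was 1.14 for Adh1.

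By group, 4 of 9 antimicrobial genes were at least 2-fold higher and none lower (median 0.72, and 0.53 in the other epithelial cells): Ang4, Mmp7 (matrilysin, 332 to 1094 CPM, 1.72), Pglyrp1 (a peptidoglycan recognition protein, 1086 to 3678 CPM, 1.76) and Nos2 (nitric oxide synthase, 3.17 to 49.6 CPM, 3.60). In the other epithelial cells without Secretory-Reg4-Ang4, Pglyrp1 differed by 1.65, Nos2 by 5.96 and Mmp7 by 0.62. Of 18 TNF and NF-kB response genes, 10 were higher and none lower (median 1.12, and 1.11 in the other epithelial cells), among them the feedback inhibitor Tnfaip3 (2.08), the chemokine Ccl20 (2.60), Relb (1.63), Birc3 (1.48) and Nfkbia (1.14). The growth factors Areg (253 to 663 CPM, 1.39) and Hbegf (72.6 to 163 CPM, 1.16) were the 2 of 6 niche genes that were higher. Of the regenerative list, 2 of 9 were higher (median 0.41), both at low level: Ly6d (3.87 to 21.4 CPM) and Il1rn (8.81 to 38.7 CPM). Of 6 interferon genes Ifitm3 was higher (36.6 to 80.0 CPM) and Isg15 lower (26.4 to 6.04 CPM).

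The lists of secretion machinery held few such genes, as did all genes together (2.58% higher and 0.468% lower). Counts at or near 0 in such short lists therefore do not set them apart. None of 12 secretory transcription factors (median -0.09), 27 folding genes (-0.03), 12 granule and exocytosis genes (-0.06), 10 ion and fluid genes (0.24), 4 Notch genes (-0.02) or 8 progenitor and cycle genes (0.25) was 2-fold different, and of 19 mucin glycosylation genes 1 was higher (St6galnac6, 34.9 to 75.3 CPM, 1.09). Among 10 goblet mucus genes 1 was higher (Clca1) and 1 lower (Zg16), with a median of 0.29, and among 13 deep-crypt genes 1 was higher (Clps, 228 to 767 CPM, 1.75) and 3 lower (Reg4, Mptx1 and Klk1), with a median of -0.40. Immediate-early genes of dissociation stress were higher in 4 of 8 (median 0.98, and 0.36 in the other epithelial cells), such as Atf3 (238 to 692 CPM) and Fos (388 to 850 CPM), and their part in the differences above was not tested. Of 5 absorptive genes 3 were higher, Car2 from 192 to 600 CPM, Cyp2c55 and Ctss. The list of goblet genes that the study used had 2 of 14 higher and 1 lower, and its list of deep secretory genes 2 of 48 higher and 5 lower. Without the 17 class cells that held Y-linked transcripts alone, 140 genes were higher and 28 lower.

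**Figure D5:**
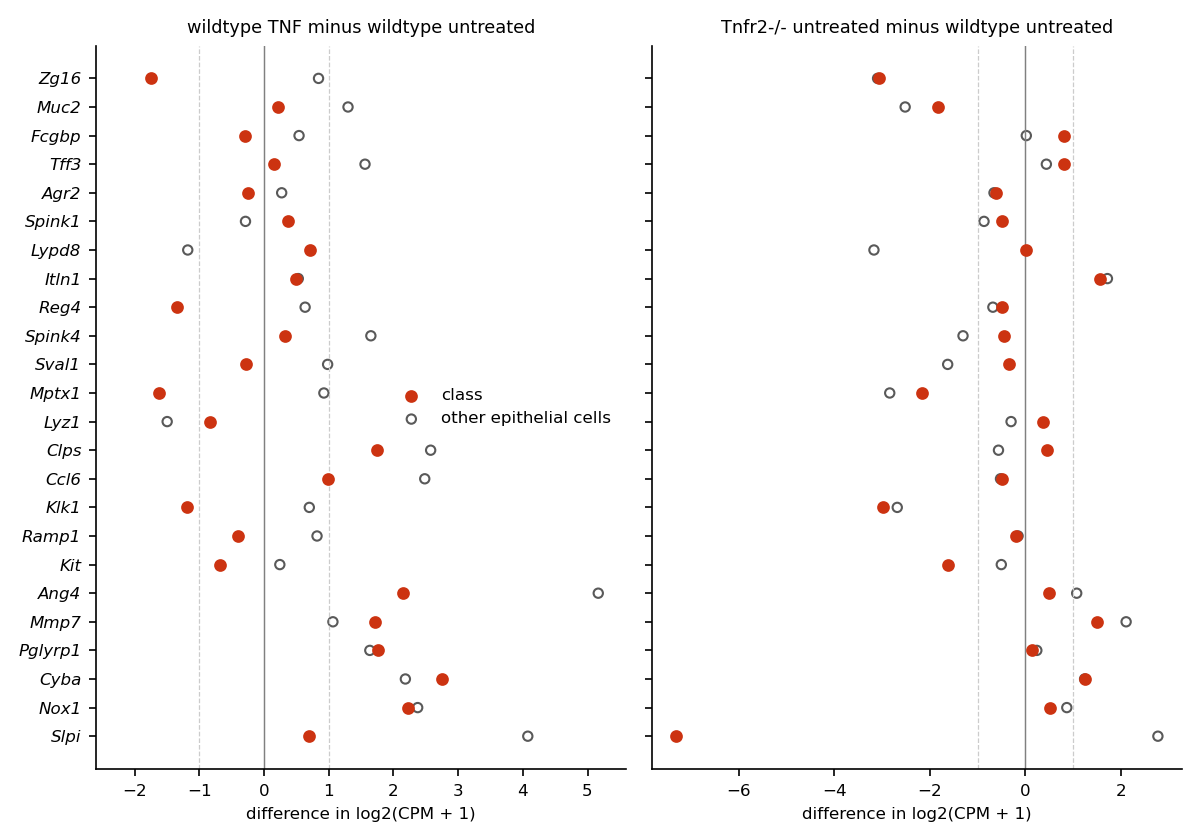
Difference in log2(CPM + 1) for 24 genes, as wildtype TNF minus wildtype untreated (left) and Tnfr2-/- untreated minus wildtype untreated (right), in the class (filled) and in the other epithelial cells (open), with dashed lines at 2-fold. On the left Zg16, Mptx1, Reg4 and Klk1 lie below -1 in the class and above 0 in the other cells, and on the right Slpi lies at -7.32 in the class and 2.78 in the other cells.

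In the genotype comparison the targeted gene itself was sparse. Tnfrsf1b had 15, 73, 5 and 0 UMIs in the class, that is 5.28 CPM (2.96 to 8.72), 11.3 CPM (8.87 to 14.2), 2.09 CPM (0.679 to 4.88) and 0 CPM (where a floor of 3 UMIs allows up to 11.2). It was found in 13 of 73, 46 of 111, 5 of 63 and 0 of 8 cells. Transcripts were thus still counted in the cells labelled Tnfr2-/- untreated, at intervals that overlap those of wildtype untreated. By quantitative PCR the study found no Tnfr2 transcript in its knockout colonoids, and by flow cytometry less TNFR2 protein on epithelial cells of Tnfr2-/- mice. Where 3' tags lie outside the altered part of a gene they do not check a knockout, and where that part lies is not given in the sources used here. Tnfrsf1a had 75, 213, 58 and 4 UMIs.

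Tnfr2-/- was compared with wildtype in untreated organoids to see what the class looked like without receptor 2. Of 5707 genes, 147 were at least 2-fold higher in Tnfr2-/- (2.58%) and 105 at least 2-fold lower (1.84%), with a median over all genes of 0.02. In the other epithelial cells 154 of 6028 genes were higher (2.55%) and 221 lower (3.67%). The split depended on the scaling: higher genes were 58.3% of those called as given, 49.8% with TMM factors (118 higher, 119 lower) and 46.1% with median-of-ratios factors (107 higher, 125 lower). Of the 6 class markers 2 were lower, Zg16 (-3.07, and -3.51 without each library's highest cell) and Muc2 (-1.84), and none was higher. Lyz1 differed by 0.37, Sval1 by -0.35, Spink4 by -0.44 and Reg4 by -0.49. In the other epithelial cells Zg16 differed by -3.09, Muc2 by -2.52, Sval1 by -1.62, Spink4 by -1.30, Reg4 by -0.68 and Lyz1 by -0.30. The median of the 6 markers was -1.46 there and -0.46 in the class, so lower markers were not particular to the class.

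The other mucus genes differed from Muc2 in size or direction. Agr2 differed by -0.62, Tff3 by 0.82 and Fcgbp by 0.81, while Itln1 was 2-fold higher (1.57), which left the 9 measured goblet mucus genes with 1 higher, 2 lower and a median of 0.01. Of 13 deep-crypt genes 3 were lower, Klk1 (-2.98), Mptx1 (-2.17) and Kit (-1.62), and none was higher (median -0.35). Of 8 antimicrobial genes 2 were higher, Itln1 and Mmp7 (332 to 937 CPM, 1.49), and 2 lower, Wfdc2 (171 to 71.1 CPM, -1.26) and Pigr, the carrier of IgA across the epithelium (405 to 189 CPM, -1.10). In the other epithelial cells Itln1 (1.72), Mmp7 (2.11), Mptx1 (-2.84), Wfdc2 (-1.08) and Pigr (-1.05) differed in the same direction, and Kit differed by -0.50. The median there was -0.65 for the goblet mucus genes and -0.52 for the deep-crypt genes.

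The greatest falls by the naming rule, besides the sex-linked Xist and the genes already given, reached over 7 units on the log2 scale. Slpi, an inhibitor of leukocyte proteases, was at 627 CPM in wildtype and 2.93 CPM in Tnfr2-/- (-7.32), in 39.7% and 6.35% of cells, while the other epithelial cells differed by 2.78. Tstd1 was at 124 and 0.418 CPM (-6.46), in 79.5% and 1.59% of cells. Cma1 (-4.98), the membrane mucin Muc4 (-3.66), Cd177 (-3.56), Cldn15 (a claudin that passes sodium, -3.08) and Tm4sf20 (-2.91) followed. Apart from Slpi, these genes were lower in the other epithelial cells too. There Tstd1 differed by -4.98, Zg16 by -3.09, Klk1 by -2.68, Tm4sf20 by -2.28 and Cldn15 by -2.02. Cma1 (-1.52), Muc4 (-1.24) and Cd177 (-0.96) differed less there. Of 9 ion and fluid genes 2 were lower and 1 higher, with Best2, a goblet cell anion channel, at 50.02 and 13.0 CPM Guca2b (uroguanylin, which acts on fluid secretion) at 344 and 97.5 CPM, and the chloride cotransporter Slc12a2 at 593 and 1266 CPM (1.09).

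The greatest rise was in Serpina1b, a gene of the alpha-1-antitrypsin family, at 30.6 and 746 CPM (4.56) and in 19.2% and 69.8% of cells, with near copies between which reads may be split. Slfn2 (2.42), Lgals2 (a galectin, 2.41), Gm42047 (2.31), Ces1c (a carboxylesterase with near copies, 2.19), R3hdml (2.07), Timp2 (an inhibitor of metalloproteases, 2.02) and Cldn14 (1.91) followed. In the other epithelial cells Gm42047 (3.27), R3hdml (2.60), Slfn2 (2.21), Serpina1b (1.42) and Lgals2 (1.18) were at least 2-fold higher too. Timp2 (0.80), Cldn14 (0.43) and Ces1c (0.18) stayed under 2-fold there. Gm26917 (2.41) and the interferon-induced Ifitm3 (1.99) also ranked among the 10, but rested on few cells. Without each library's highest cell Gm26917 differed by 0.14, and without the class cells above 100000 UMIs Ifitm3 differed by 0.02. Ifitm3 was found in 47.9% of wildtype and 27.0% of Tnfr2-/- class cells.

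Over all genes 2.58% were higher and 1.84% lower in this comparison, so single genes called in lists this short do not set the lists apart. In the remaining groups, 1 of 12 secretory transcription factors was higher (Foxa2, 31.0 to 69.0 CPM, 1.13) and 1 of 26 folding genes (Sel1l, which clears misfolded protein, 36.6 to 84.5 CPM, 1.18). None of 4 Notch genes passed 2-fold, 1 of 19 glycosylation genes was lower (St6galnac6, -1.70) and 1 of 13 granule genes was lower (Scin, an actin-severing protein, -1.29). Of the 9 progenitor and cycle genes, Mki67 (57.1 and 22.6 CPM), Birc5 and Cdca3 were lower and Smoc2 higher (59.2 and 140 CPM), with a median of -0.64 in the class and 0.55 in the other epithelial cells. Of 7 niche genes Wnt3, the stem-cell ligand that Paneth cells supply, was higher at low level (4.93 and 26.3 CPM) and Kit lower. Of 12 TNF and NF-kB genes Saa3 was higher and the chemokines Cxcl1 and Cxcl10 lower, and the interferon-induced factor Irf7 was higher (11.3 and 39.7 CPM, 1.73). Of 8 regenerative genes Clu was higher (2.09), and of 4 absorptive genes Car1 and Ctss were lower. Of 8 stress genes 2 were higher, Fos and Fosb. The study's goblet list had 1 of 14 higher and 2 lower, and its deep secretory list 1 of 47 higher and 8 lower.

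Genes of 2 chromosomes stood apart in this comparison: relative to all genes, the median difference in the class was 0.384 for 244 genes of chromosome 19 and 0.339 for 454 genes of chromosome 2. Foxa2, named above as higher, lies on chromosome 2, as does Slpi, which was lower. The same medians in the other epithelial cells were 0.436 and 0.232, and for 13 mitochondrial genes the class had 0.547. Without genes of chromosomes 2, 19, X and Y, 100 genes were higher and 94 lower. Whether these shifts come with the genotype or with the culture cannot be told apart.

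The 8 class cells of the Tnfr2-/- TNF library give values only. Their levels of Spink4, Sval1 and Tff3 lay within or above the range of the other libraries, Reg4 (523 CPM), Lyz1 (504 CPM) and Muc2 (471 CPM, with an interval that overlaps that of Tnfr2-/- untreated) lay below all 3, and Zg16 and Kit had no UMI. Pglyrp1 was at 2977 CPM, nearer to wildtype TNF than to either untreated library. Reg3g, an antimicrobial lectin, was at 232 CPM there against 0, 6.04 and 1.67 CPM elsewhere, and all of it came from 1 cell.

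Markers of mesenchymal, tuft and immune cells were near 0 in the class, while some absorptive and enteroendocrine markers were counted. The 10 mesenchymal markers summed to 20.8, 17.8, 4.18 and 0 CPM, the 7 tuft markers to 1.41, 0, 0 and 0 CPM and the 6 immune markers to 3.17, 3.72, 1.25 and 3.74 CPM, and no class cell held more than 1% mesenchymal UMIs. The 11 enteroendocrine markers summed to 349, 16.4, 78.2 and 3.74 CPM (1818, 3011, 600.1 and 866 CPM in the other epithelial cells), of which Chgb made up 294 CPM in wildtype untreated, in 2.74% of its cells. Chga and Chgb, the enteroendocrine genes at 20 CPM or more, were both 2-fold lower with TNF, and Chgb (5.86 CPM) was lower in Tnfr2-/- untreated. The 10 absorptive markers summed to 508, 883, 318 and 265 CPM, against 7215, 2713, 1249 and 1321 CPM in the other epithelial cells. Mitochondrial transcripts took a median of 2.95%, 3.16%, 4.52% and 5.92% of UMIs per class cell. The part of these in the differences between libraries was not tested.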

How the data were processed

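Single cells of 4 organoid libraries, 1 per group, were measured by 10x 3' sequencing. The authors deposited UMI counts as whole numbers for 30360 genes and 6155 cells. Per the labels they were made with Cell Ranger 5.0.0 on mm10, and per the study's methods cells under 100 UMIs and epithelial-mesenchymal doublets were removed in monocle3, which also gave the deposited Leiden classes used here as given. Each cell's library number, genotype and treatment in the deposited cell table gave its group. The size factor, a score per cell that the authors deposited, and the plotting coordinates were not used.

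From these counts, UMIs were summed over class cells per library and scaled to CPM, and differences are of log2(CPM + 1), which understates those of low genes. A gene entered a comparison at 20 CPM or more in either library and was counted from 2-fold. With 1 library per group no test was run. Shares of cells and rank correlations were computed after thinning to 5000 UMIs (seed 7). Scrublet in scanpy 1.11.5 (expected rate 0.06) marked doublets, none in the class. Other tools were Python 3.11.15, numpy 2.4.6, scipy 1.17.1, pandas 2.3.3, matplotlib 3.10.9, R 4.3.3 and edgeR 4.0.16, the last for TMM factors only. Positions came from GENCODE M21 (GRCm38), which matched 30317 identifiers and missed 43, and 67 symbols were shared by more than 1 gene. Promoter windows came from RefSeq (GRCm38.p6).

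Genes that could be named were members of the marker, goblet mucus, deep-crypt secretory, transcription factor and niche lists, 2 to 6 members of the other lists, the 15 leading genes by their smallest difference, and the 10 greatest rises and falls of each comparison among genes at 50 CPM or more and in 25% or more of the class cells of the higher library. Pla2g2a and St6galnac2 of the lists were not analysed here. The count of the interferon list in the genotype comparison is not reported here. The members and lists were chosen with earlier results of these data known. Scripts were tested on simulated data. Alternatives were another pseudocount, level minimum, scaling, mean over cells, thinning, other denominators, and leaving out doublets or the deepest, highest or Y-linked cells.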

Additional observations from a re-analysis of the deposited data

Results flagged for a closer look

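Within the class, both Ang4 and Mmp7 differed in opposite directions with TNF in the 2 genotypes. They were picked from all genes of the marker, goblet mucus, deep-crypt and antimicrobial lists. The rule asked for opposite directions, at least 2-fold in each genotype, and counting intervals that lie apart. Such intervals do not cover the spread between cells or cultures. Ang4 went from 2874 UMIs (1012 CPM) to 29031 UMIs (4498 CPM) in wildtype, a difference of 2.15 in log2(CPM + 1), and from 3411 UMIs (1427 CPM) to 186 UMIs (695 CPM) in Tnfr2-/-, a difference of -1.04. The second difference minus the first was -3.19. Mmp7 went from 943 UMIs (332 CPM) to 7063 UMIs (1094 CPM) in wildtype (1.72) and from 2240 UMIs (937 CPM) to 106 UMIs (396 CPM) in Tnfr2-/- (-1.24), and the second minus the first was -2.96. Each group was 1 library and the Tnfr2-/- TNF values come from 8 cells, whose median Ang4 was 0 UMIs. Ang4 had a UMI in 25% of these 8 cells and Mmp7 in 87.5%. The other epithelial cells of Tnfr2-/- did not share the fall: Ang4 was at 12.9 CPM untreated and 44.4 CPM with TNF, and Mmp7 at 151 and 152 CPM. The difference between genotypes was not tested.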

How the results depend on the processing

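No paired analysis was possible because each group was 1 library. Over the alternatives run, 525 single-gene values stayed within their counting interval and 146 moved outside it. No named gene that was at least 2-fold different changed its direction. Of the gene counts and class shares, 53 stayed the same and 24 moved. A gene count was taken as moved beyond 1.5 times, and a share outside its counting interval. The count of leading genes was 5 against the highest other class, 87 with no level minimum and 26 with cells averaged equally. For TNF in wildtype the counts higher and lower were 85 and 16 with a pseudocount of 10, 73 and 12 at a minimum of 50 CPM, 519 and 221 with no minimum and 359 and 297 after thinning. For genotype they were 66 and 66, 52 and 46, 751 and 577, and 650 and 469 under the same settings, and averaging cells equally gave 249 higher. The class share was 2.82% of all wildtype untreated cells and 7.56% of all wildtype TNF cells. Among wildtype TNF epithelial cells with 5000 UMIs or more it was 12.1%, and without Progenitor.3 and Secretory-Reg4-Ang4 it was 14.4%. The causes of these shifts were not tested, apart from the level minimum, which changes the number of genes counted. Leaving out the cells above 100000 UMIs, chosen after seeing the data like the alternatives without Y-linked cells, without chromosomes 2, 19, X and Y and without the highest cell, gave 149 and 26 for TNF and 154 and 117 for genotype. Under 2-fold in at least 1 setting were Siva1, Vkorc1, Hsd11b2, Klk1, Mptx1 and Sycn with TNF and Ifitm3 and Gm26917 with genotype. Depth and the 8 cells of Tnfr2-/- TNF limit what can be said of genes under 20 CPM.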
